A study of Mus musculus with 12 samples.

Results

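Y428F cells and WT cells were compared with each other after vehicle alone, that is, without PTH, over every gene that had at least 10 counts in total in the 6 libraries concerned. These were 16167 of the 56980 genes in the count matrix. Bulk RNA-Seq had been done on 12 libraries of W-20 cells, a murine bone marrow stromal cell (BMSC) line, in 4 groups of 3. The groups were WT and Y428F cells, each exposed for 2 hours to 50 nM PTH or to its vehicle, PBS. The comparison used the 3 vehicle libraries of each line. The 6 PTH libraries gave the difference between the same lines under PTH, which is not an independent repeat.

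WT denotes the W-20 parent cells. The Y428F line denotes W-20 cells that were given a plasmid for Flag-tagged YAP in which a tyrosine is replaced by phenylalanine (Y428F) and were selected with puromycin as positive clones. The study text names S381A as well as Y428F in the introduced protein, whereas the library titles name Y428F only and the genotype field reads WT for every library, so the line was taken from the titles. Whether the sequenced line came from 1 clone or several is not given in the sources used here. No library of cells that carry introduced WT YAP, or YAP with S381A alone, was analysed here. The amino acid change, the introduced plasmid, drug selection and divergence between lines therefore cannot be told apart in any difference described below. Nothing in the labels says that the 3 libraries of a group came from separate cultures, so the p-values measure only the spread between these samples.

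YAP is a transcriptional coactivator that binds TEAD factors in the nucleus when the Hippo kinases are off, and it favors growth, matrix and cytoskeletal genes. BMSCs are the precursors of osteoblasts, adipocytes and chondrocytes. They secrete much of the marrow matrix and support blood cells through factors such as Cxcl12 and Angpt1. Like most cells, they keep a low standing level of interferon-stimulated genes, which are switched on when type I interferon binds Ifnar1 and Ifnar2, the kinases Jak1 and Tyk2 are activated, and a complex that includes Stat2 and Irf9 binds the interferon-stimulated response element (ISRE).

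Library totals were between 17513924 and 19018693 counts in WT and between 17670681 and 19057319 in Y428F, so depth did not separate the lines. Levels are given in CPM, counts scaled to the library total after TMM normalization, as mean ± SD (n = 3 libraries). CPM are not divided by gene length, so a level is compared only with the level of the same gene. Genes count as higher or lower in Y428F, and as called, where the log2 fold change (Y428F minus WT) passed 0.3 in that direction at an adjusted p below 0.01. Adjusted p-values are those of the edgeR quasi-likelihood fit, corrected by Benjamini-Hochberg over the whole set of tested genes, and the error of a log2 fold change is its SE. In bulk RNA, fewer cells that express a gene and less RNA of that gene in each cell cannot be told apart.

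The libraries were not equally alike within a line. On the first principal component, with 58% of the variance, the WT libraries scored between -98.55 and -73.09 and the Y428F libraries between 86.19 and 89.62. On the second, with 14.3%, WT replicate 1 scored 90.42 and stood apart from the other 5, which lay between -41.04 and 6.156. In WT replicate 1, 120 of 10498 genes were more than 0.5 (log2) from the other libraries of its group, against 71 in WT replicate 2 and 41 to 50 in the remaining 4. WT replicate 2 had more of some small RNAs that lack a poly(A) tail. It held 576 counts of *Rpph1* against 0 to 5 in the other 5, and 2672 counts of *Rn7sk* against 88 to 195. It also held 5111 counts each of *Rn7s1* and *Rn7s2* against 50 to 94. Those entries had the same counts as each other in every library, so they are not separate measurements. *Rpph1*, *Rn7s1* and *Rn7s2* were called lower in Y428F although the groups overlapped. The mitochondrial rRNAs went the other way in that library. *mt-Rnr1* had 389 counts against 1954 to 2815, and *mt-Rnr2* had 622 against 1559 to 2990. The chi-square per degree of freedom between replicates was 8.23 to 14.2 in WT and 3.34 to 5.49 in Y428F. Among the PTH libraries, WT replicate 1 had 35 counts of *Gpc1*, a gene at 0 in the other 5 WT libraries. The part of these libraries in single results was not tested, and counts with WT replicate 1 left out are given below where they differ much.

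Both lines expressed general markers of stromal fibroblasts. The intermediate filament gene *Vim* averaged 4790.1 ± 228 CPM in WT and 4473 ± 212 CPM in Y428F, the stromal factor *Prrx1* 142 and 121 CPM, and the hyaluronan receptor *Cd44* 119.6 and 137 CPM, none of them called. Some defining stromal markers were absent, since *Thy1* had 0 counts in all 6 libraries and *Nt5e* had 0 to 2. The genes of a mature osteoblast were absent too, with *Bglap*, *Mepe*, *Sost* and *Tnfsf11* at 0 counts in all 6 libraries and *Ibsp* at 0 or 1.

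Most markers of other cell types were at or near 0, but some were not. Of 15 blood cell markers, 7 were tested, and 5 were called higher (71.4%) and 0 lower, where 16.9% of all genes tested were higher and 17.1% lower. With at least 10 counts required in every library 3 were higher. Their summed level was 10.1, 9.27 and 8.49 CPM in the WT libraries and 41.0, 39.0 and 40.7 CPM in the Y428F libraries. The neutrophil surface gene *Ly6g* had the most counts and made up much of that sum, with 0 counts in every WT library and 321, 336 and 339 in Y428F. *Ptprc*, the gene of the pan-leukocyte protein CD45, averaged 0.865 ± 0.138 CPM in WT and 2.85 ± 0.277 CPM in Y428F, whereas *Cd3e* and *S100a8* were at 0 in all 6. Of 9 endothelial markers, 4 were tested, 1 was higher and 1 lower (25% each). With at least 10 counts required in every library 0 were higher. In 5 of the 6 fits without 1 library (all but that without WT replicate 2) 0 were lower. The replicate block and the DESeq2 Wald test also gave 0 of these markers as lower. Their sums were 4.4, 2.88 and 4.25 CPM against 9.20, 9.97 and 11.4 CPM, with *Cdh5* the leading gene and *Emcn*, *Cldn5* and *Erg* at 0. Of 9 epithelial markers, 5 were tested and 2 were higher (40.0%), or 1 without Y428F replicate 1. Where at least 10 counts were required in every library, 0 of these markers were higher. Their sums were 0.858, 0.978 and 0.381 CPM against 5.52, 4.39 and 3.72 CPM, with *Krt8* leading and *Epcam* and *Krt5* at 0. Of 6 chondrocyte markers tested, 1 was higher (16.7%) and 2 lower (33.3%), with sums of 53.8, 72.3 and 66.4 CPM against 87.8, 90.9 and 92.7 CPM. The higher sums in Y428F came from *Col11a1*, whereas *Sox9* was lower, as given below. Of 3 muscle markers tested, 1 was higher (33.3%), and of 3 neural markers, with sums of 19.5 to 23.8 CPM in WT and 19.7 to 21.1 CPM in Y428F, 1 was lower. The defining muscle genes *Myod1*, *Myog*, *Myf5* and *Pax7* were at 0 in both lines. The part of these transcripts in the results below was not tested.

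*Yap1*, whose counts cannot tell the introduced from the endogenous transcript, had 183, 194 and 197 CPM in the WT libraries and 152, 144 and 151 CPM in the Y428F libraries. The groups did not overlap, and *Yap1* was lower in Y428F by a log2 fold change of -0.36 (SE 0.05, adjusted p = 2.41e-05). The PTH receptor gene *Pth1r* had 6, 0 and 2 counts in WT and 3, 10 and 10 in Y428F, and a difference was not detectable at this depth (adjusted p = 0.174).

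With vehicle, 2738 genes were higher in Y428F (16.9% of those tested) and 2763 were lower (17.1%), together 34.0% of the 16167. TMM scaling centers the comparison, and the median log2 fold change over all genes was 0.01. With scaling to library totals that median was 0.06, and 3150 genes were higher and 2426 lower. Most of the calls were of modest size, since the median log2 fold change was 0.63 among genes called higher and -0.66 among genes called lower. A change beyond a log2 fold change of 1 was found for 789 higher (4.88%) and 847 lower genes (5.24%), and beyond 3 for 280 and 205. The genes called higher made up 15.5 ± 0.465% of all counts in WT and 24.1 ± 0.231% in Y428F, and those called lower made up 31.1 ± 1.19% and 20.1 ± 0.203%. With WT replicate 1 left out, 2836 genes were higher and 2874 lower.

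The PTH libraries, none of which entered that test, gave the line difference again. With PTH, 33.8% of 15913 genes were called, 2631 of them higher in Y428F and 2749 lower. Of the 2731 genes called higher with vehicle that could be tested with PTH, 2714 had the same direction and 2183 were called higher again. Of 2754 genes called lower, 2743 had the same direction and 2280 were called again. The opposite call was made for 3 genes, of which *Daam1*, a formin that organizes actin filaments, was higher with vehicle (0.32) and lower with PTH (-0.63), whereas the membrane fusion gene *Stx3* was lower with vehicle (-0.38) and higher with PTH (0.43). The third was a *Pakap* gene, with log2 fold changes of 0.57 and -0.51. These 3 were named after their values were seen. A test of the line difference with vehicle against that with PTH over all 12 libraries passed for 22 of 17691 genes (0.124%).

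**Figure D1:**
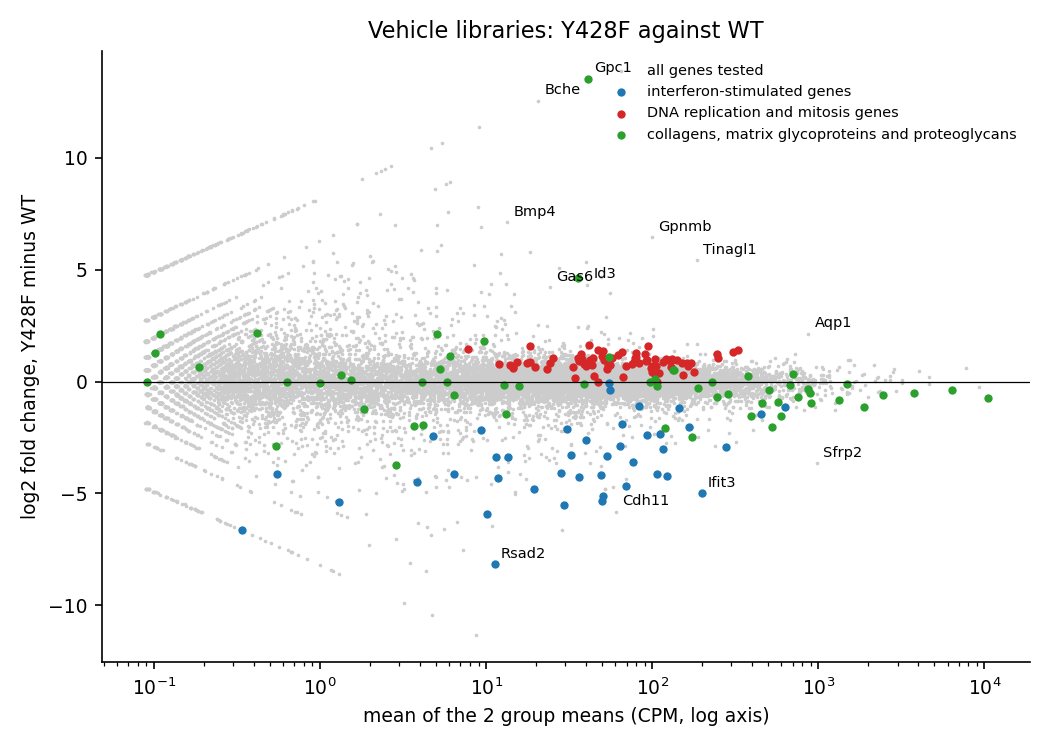
Log2 fold change (Y428F minus WT, y axis) of each gene tested against its mean level in CPM (x axis, log scale) in the vehicle libraries, with 3 sets of listed genes in color. The interferon-stimulated genes lie far below 0, with a median of -3.39, and the DNA replication and mitosis genes lie between -0.03 and 1.63, with medians of 0.82 and 0.96. Genes at 0 counts in 1 line, such as Gpc1, have fold changes that depend on the fit and are not bounds.

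The interferon-stimulated genes, which encode antiviral effectors, antigen presentation proteins and the factors that drive their own transcription, were far lower in Y428F. Of 41 on the list, all were tested, 40 were lower in Y428F and 0 were higher, against 17.1% lower among all genes. Their median log2 fold change was -3.39, or -3.34 with the 4 members at or under 3 counts in every Y428F library set to their bound, and the median of all genes was 0.01. Summed over the list, the level was 5180.0, 5787 and 5606 CPM in the WT libraries and 1279.7, 1272 and 1261 CPM in the Y428F libraries. In the PTH libraries 39 of the 41 were called lower, with a median of -3.69. The WT libraries with PTH were less alike, and replicate 3 was the lowest for *Ifit3* (325, 314 and 189 CPM) and *Ifi44* (80.5, 87.5 and 38.9 CPM). The Y428F means with PTH were 8.97 and 1.04 CPM. The list was chosen with earlier results of these data known, so its counts describe the data and are not independent evidence.

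*Rsad2* (viperin, which blocks viral RNA synthesis) had 405, 387 and 429 counts in the WT libraries and 0, 2 and 2 in the Y428F libraries, and was at least 138-fold lower against a floor of 3 counts per library. The GTPase gene *Mx2* had 360, 350 and 378 counts in WT and 4, 6 and 8 in Y428F, 60.2-fold lower. Each Y428F library was far below each WT library, and the spread within a line was small beside the gap. *Ifi44* was 46.1-fold lower, and the protease gene *Usp18*, which removes ISG15 from proteins and dampens the receptor, was 40.9-fold lower. *Ifit3*, an RNA-binding antiviral protein, had 388, 399.7 and 368 CPM in WT and 12.9, 12.1 and 11.3 CPM in Y428F (log2 fold change -4.99, SE 0.067, adjusted p = 4.26e-16). The ubiquitin-like modifier gene *Isg15* had 196, 202 and 208 CPM in WT and 11.0, 12.8 and 10.5 CPM in Y428F (-4.14, SE 0.072, adjusted p = 7.82e-15). The paralogs *Ifit3* and *Ifit3b*, and members of the *Gbp* and *Oas* families, share sequence, and RSEM divides reads between such copies, so the split between them is uncertain.

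The interferon-stimulated list also holds transcription factors and sensors of the response. *Irf7*, which amplifies interferon production, averaged 92.9 ± 5.89 CPM in WT and 5.17 ± 0.597 CPM in Y428F (17.9-fold lower). *Stat2* was 5.17-fold and *Irf9* 3.73-fold lower, and for both the groups were far apart. Of the cytosolic RNA sensors, *Rigi* was 5.09-fold and *Ifih1* 4.31-fold lower. Of the genes for antigen presentation, the transporter *Tap1* was 6.07-fold lower, the class I heavy chains *H2-K1* and *H2-D1* were 4.07-fold and 2.7-fold lower, and their light chain *B2m* had 813, 936 and 859 CPM in WT and 395, 393 and 392 CPM in Y428F (2.21-fold lower). The member nearest to no change was *Isg20*, with 55.6 CPM in WT and 53.5 CPM in Y428F (adjusted p = 0.518), and *Irf1* was called with a log2 fold change of only -0.36, against -0.00 in the PTH libraries.

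**Figure D2:**
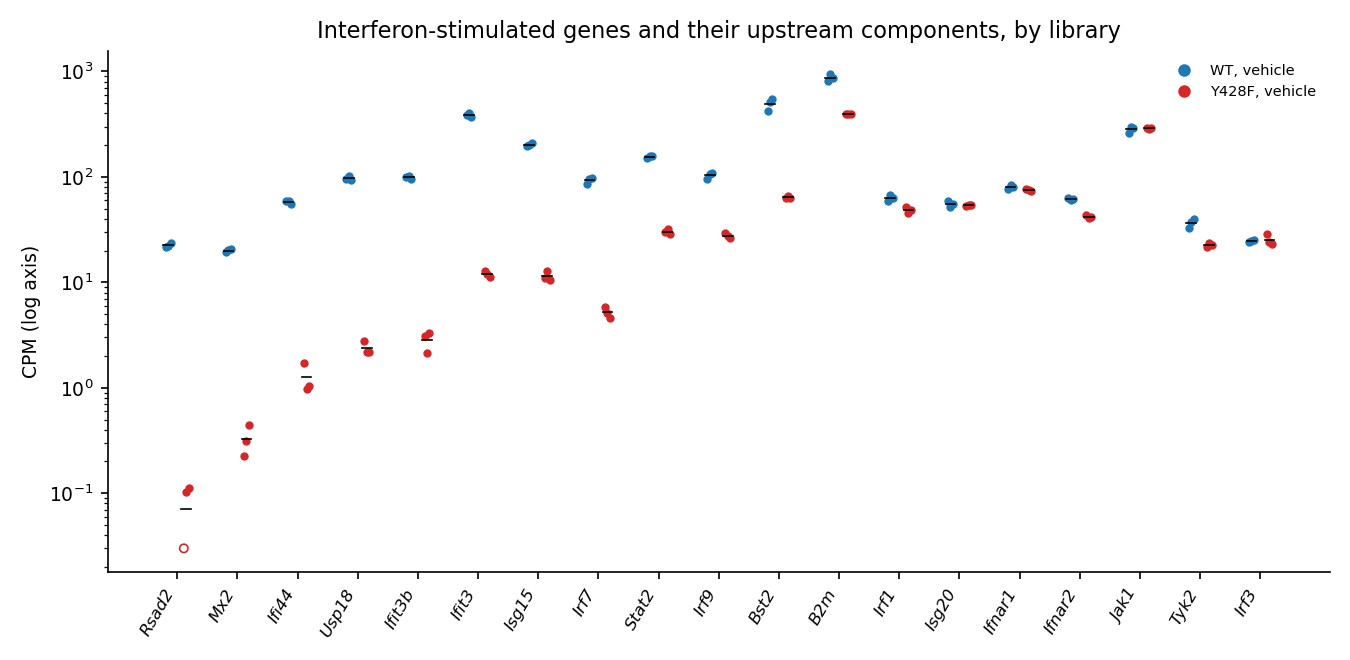
Level in CPM (y axis, log scale) of interferon-stimulated genes and of their upstream components in each vehicle library; points are libraries, bars are means of 3, and the open point marks 0 counts drawn at the foot of the axis. From Rsad2 to B2m the 3 red points (Y428F) lie below all 3 blue points (WT), whereas Isg20, Ifnar1, Jak1 and Irf3 were not called.

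Further lists, added after the values above were seen, held the interferon ligands, their receptors, and nucleic acid sensors and regulators. Of the ligand genes, none of the 10 listed reached the filter, and *Ifnb1* had 2, 4 and 0 counts in WT and 0, 0 and 2 in Y428F, so ligand RNA was at or near the detection limit in both lines. Of 7 receptor and kinase genes tested, 3 were lower (42.9%, against 17.1% of all genes) and 0 higher, or 1 higher without WT replicate 2. The receptor chain *Ifnar2* averaged 62.0 ± 1.59 CPM in WT and 41.9 ± 1.09 CPM in Y428F (-0.57, SE 0.063, adjusted p = 2.32e-06), and the kinase *Tyk2* had 36.5 and 22.7 CPM (-0.68, SE 0.083). *Ifnar1* (80.8 and 75.1 CPM, adjusted p = 0.141) and *Jak1* (282 and 289 CPM, adjusted p = 0.664) were not called. Of 14 nucleic acid sensor and regulator genes tested, 5 were lower (35.7%) and 0 higher, or 1 higher without WT replicate 1. The double-stranded RNA receptor *Tlr3* was lower by a log2 fold change of -1.87 and the DNA pathway adaptor *Sting1* by -0.89, whereas *Irf3*, which starts interferon transcription, had 24.5 and 25.3 CPM (adjusted p = 0.68) and the adaptor *Mavs* 51.9 and 45.7 CPM (adjusted p = 0.077).

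The promoters of these genes were read from RefSeq (GRCm38.p6), as the 250 bases before and 50 after the first start listed for a gene. The core of the ISRE, searched on both strands, was taken as GAAA, any 2 bases and again GAAA. It was found in 17 of the 32 interferon-stimulated genes with a promoter (53.1%), in 3.08% of the 10865 tested genes with one and in 3.49% of all 27025 promoters. Among genes called lower beyond a log2 fold change of 1 the share was 10.8%, and among those called higher beyond it 3.55%. A match is a description of the sequence and not a measured binding site. The stretches below are the match nearest the start for the 5 listed genes with the largest fold change and a match before the start, with the matching letters in capitals, read in the direction of transcription. The share of a list with a match, here and for the elements below, does not use the line difference. A part of the element in that difference was not tested.
Rsad2 (chr12:26456551-26456584, minus strand): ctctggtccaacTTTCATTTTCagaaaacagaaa
Gbp7 (chr3:142530271-142530304, plus strand): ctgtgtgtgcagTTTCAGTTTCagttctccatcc
Ifit3b (chr19:34607791-34607824, plus strand): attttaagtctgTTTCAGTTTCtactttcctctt
Ifit3 (chr19:34583395-34583428, plus strand): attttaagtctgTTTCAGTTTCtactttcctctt
Gbp3 (chr3:142559987-142560026, plus strand): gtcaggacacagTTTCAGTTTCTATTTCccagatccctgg
In each of the 5 the GAAA letters are on the opposite strand and read TTTC here. The stretches of *Ifit3* and *Ifit3b* are the same letter for letter, and in *Gbp3* 2 matches overlap.

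Genes for DNA replication and mitosis, which dividing cells express in S phase and in G2 and M phase, were mostly higher in Y428F. Of 40 replication genes tested, 36 were higher and 0 lower, against 16.9% higher among all genes, with a median log2 fold change of 0.82. Of 35 mitosis genes, 34 were higher and 0 lower, with a median of 0.96. The summed level of the mitosis genes was 2467, 2090.5 and 2210.1 CPM in the WT libraries and 4324, 4376 and 4376 CPM in the Y428F libraries. In the PTH libraries 36 replication and 35 mitosis genes were higher.

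The ribonucleotide reductase subunit *Rrm2* had 56.0, 42.1 and 44.0 CPM in WT and 139, 138 and 149 CPM in Y428F (1.58, SE 0.086, adjusted p = 1.12e-09). The origin licensing gene *Cdc6* was 2.99-fold higher, the single-strand DNA binding protein gene *Rpa1* 2.53-fold and thymidine kinase *Tk1* 2.40-fold. WT replicate 1 was the highest WT library for *Rrm2* and *Tk1*, but all WT libraries were well below all Y428F libraries. Among mitosis genes, the Aurora kinase gene *Aurkb* had 21.3, 19.2 and 20.8 CPM in WT and 60.1, 62.8 and 67.0 CPM in Y428F (1.63, SE 0.074, adjusted p = 1.44e-10). The topoisomerase *Top2a* was 2.64-fold, the survivin gene *Birc5* 2.60-fold and the proliferation marker *Mki67* 2.34-fold higher. The list members that were not called were *Slbp*, *Rfc1*, *Gins4* and *Rfc3* among replication genes and *Ccnb2* among mitosis genes.

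Of 16 cyclins and inhibitors tested, 4 were higher and 4 lower (25% each, against 16.9% and 17.1% of all genes), and in the PTH libraries 3 were higher and 1 lower. *Ccnd1*, the G1 cyclin that opens the cell cycle, had 263, 271 and 285 CPM in WT and 539, 520.0 and 515 CPM in Y428F (0.94, SE 0.052, adjusted p = 1.24e-09). The inhibitors *Cdkn1a*, *Cdkn1b* and *Cdkn2b* were lower by log2 fold changes of -0.59, -0.50 and -0.38. *Trp53* itself was higher (113 ± 4.85 and 159 ± 8.61 CPM), and of 23 p53 target genes tested 7 were higher (30.4%) and 4 lower (17.4%), with a median of 0.13. The largest of the former, *Gtse1* (1.18), is itself a gene of G2 phase, and the proapoptotic *Bbc3* was lower (-0.71).

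The promoters of these genes were searched in the same way, for the E2F letters TTTCCCGC or TTTGGCGC and for the cell cycle homology region (CHR) TTTGAA, each on both strands. E2F letters were found in 10 of 31 replication gene promoters (32.3%) and in 2.94% of tested genes. CHR letters were found in 22 of 30 mitosis gene promoters (73.3%) and in 12.5% of tested genes. Over all 27025 promoters the shares were 1.63% for E2F and 18.1% for CHR. ISRE and CHR matches overlapped in 13 promoters, ISRE and E2F in 5, and E2F and CHR in 0. The matches nearest the start are shown, before the start, for the 4 genes of each list with the largest fold change and a match.
Cdc6, E2F (chr11:98908001-98908032, plus strand): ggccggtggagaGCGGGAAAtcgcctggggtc
Pola1, E2F (chrX:93632274-93632305, minus strand): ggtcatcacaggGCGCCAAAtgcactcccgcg
Mcm5, E2F (chr8:75109348-75109379, plus strand): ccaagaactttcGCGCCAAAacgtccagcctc
Mcm7, E2F (chr5:138172029-138172060, minus strand): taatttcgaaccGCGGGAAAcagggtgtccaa
Top2a, CHR (chr11:99024195-99024224, minus strand): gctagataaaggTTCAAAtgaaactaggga
Kif11, CHR (chr19:37376351-37376380, plus strand): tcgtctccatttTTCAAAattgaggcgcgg
Mki67, CHR (chr7:135716460-135716489, minus strand): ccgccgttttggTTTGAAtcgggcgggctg
Cdk1, CHR (chr10:69352913-69352939, minus strand): taccgcggcgagTTTGAAactgctggc
The E2F matches begin 138 to 165 bases before the start, and the CHR matches of *Top2a*, *Kif11* and *Cdk1* begin 15 to 23 bases before it, with that of *Mki67* at 98.

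Of 23 glycolysis genes tested, 14 were higher (60.9%, against 16.9% of all genes), 1 was lower and 8 were not called, with a median log2 fold change of 0.65, and their summed level was 7472, 7542 and 7805 CPM in WT and 12526, 12377 and 12821 CPM in Y428F. Lactate dehydrogenase A (*Ldha*), which turns pyruvate into lactate, had 8135, 7339 and 7858 counts in WT and 18195, 19799 and 18371 counts in Y428F (1.25, SE 0.05, adjusted p = 2.86e-11). The other isoform, *Ldhb*, was the member called lower (118 ± 5.27 and 79.7 ± 3.03 CPM). *Pgam1* was 2.08-fold higher, and the entry enzymes *Hk1* and *Hk2* had log2 fold changes of -0.03 and 0.06 (adjusted p = 0.767 and 0.499). Of 24 cholesterol synthesis genes, 14 were higher (58.3%), 0 lower and 10 not called, with a median of 0.37. *Idi1*, an isomerase of the isoprenoid steps, had 208, 149 and 141 CPM in WT and 257, 272 and 273 CPM in Y428F (0.69, adjusted p = 5.97e-05). WT replicate 1 was the highest WT library for it, and without that library 16 cholesterol genes and 12 glycolysis genes were higher.

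Of 25 target genes of NRF2, the regulator of the antioxidant response, 11 were higher (44.0%, against 16.9% of all genes) and 3 lower (12.0%, against 17.1%). The retinaldehyde dehydrogenase gene *Aldh1a1* had 4.24, 2.94 and 3.87 CPM in WT and 96.0, 91.6 and 95.0 CPM in Y428F (25.5-fold). The quinone reductase *Nqo1* was 2.77-fold and the thioredoxin reductase *Txnrd1* 1.84-fold higher, whereas the heme oxygenase gene *Hmox1* was lower (-0.52). Among 77 cytosolic ribosomal protein genes, 11 were higher and 1 lower, no larger a share than among all genes. That count rose to 22 without WT replicate 1 and to 17 with scaling to library totals, and fell to 6 without WT replicate 2 and to 7 without Y428F replicate 2. Of the 13 mitochondrially encoded genes, 0 were higher, or 1 without Y428F replicate 3 and with the replicate block. *mt-Nd2* was lower (-0.37), a call lost with library totals, with the DESeq2 Wald test and without WT replicate 1, Y428F replicate 1 or Y428F replicate 3 (-0.37 to -0.26, adjusted p = 0.0128 to 0.0562).

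**Figure D3:**
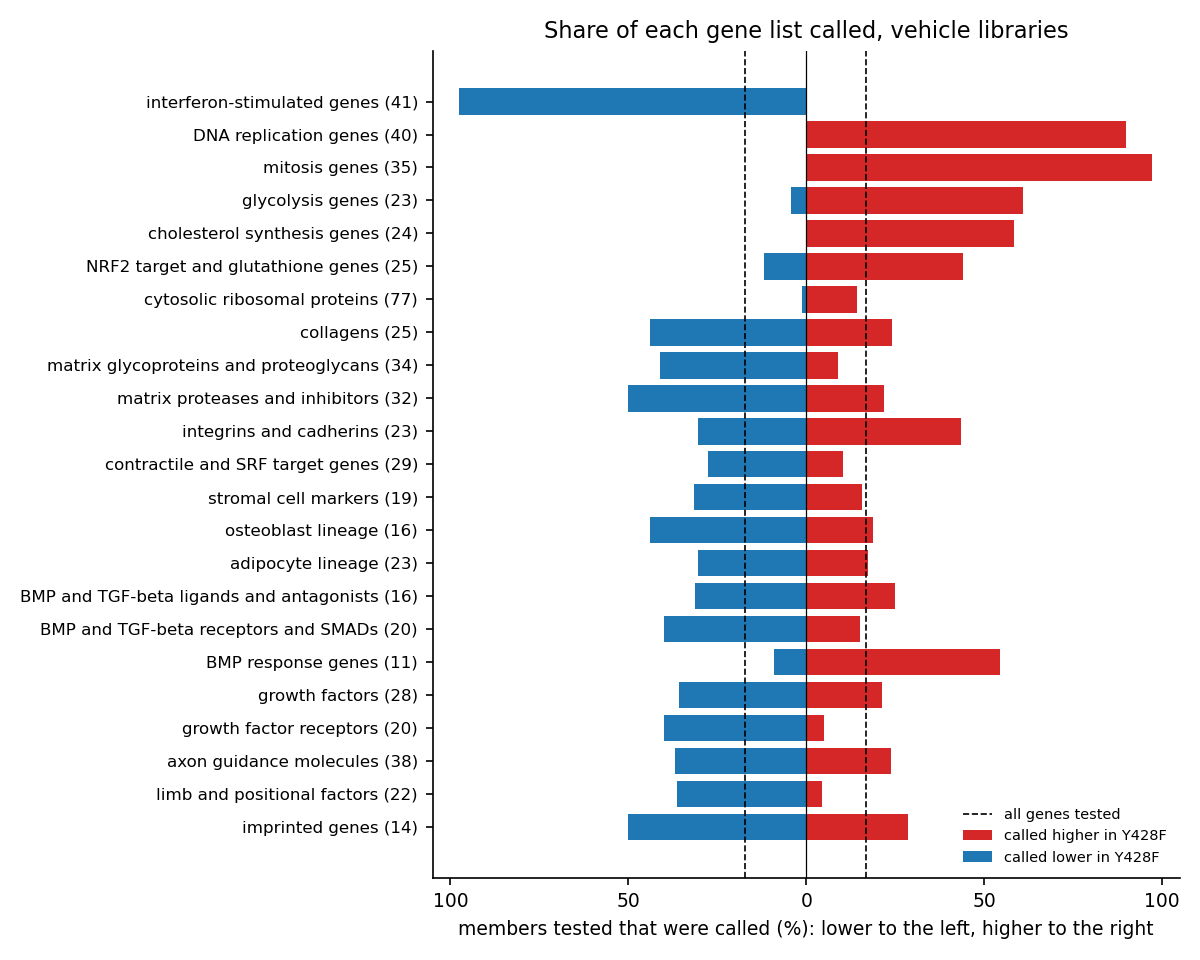
Percent of the tested members of each gene list that were called higher (red, to the right) or lower (blue, to the left) in Y428F, with the number tested in parentheses; dashed lines mark the 16.9% and 17.1% of all genes. The interferon-stimulated list reaches 97.6% lower, and the replication and mitosis lists reach 90.0% and 97.1% higher, while matrix, stromal and growth factor receptor lists lie mostly to the left.

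Of 25 collagen genes tested, 11 were lower (44.0%, against 17.1% of all genes) and 6 higher (24.0%, against 16.9%), with a median log2 fold change of -0.09. Of 34 matrix glycoprotein and proteoglycan genes, 14 were lower (41.2%) and 3 higher (8.82%), with a median of -0.24. The summed level of the collagens was 28172 ± 2416 CPM in WT and 19152 ± 745 CPM in Y428F. The fibrillar collagen *Col3a1* had 672, 936 and 934 CPM in WT and 213, 206 and 201 CPM in Y428F (-2.03, SE 0.1, adjusted p = 3.45e-10). *Col5a3* was 5.66-fold and *Col6a3* 2.95-fold lower. Of the chains of type I collagen, *Col1a2* was lower (-0.72, SE 0.071, adjusted p = 6.41e-07), and *Col1a1* was called at -0.36 but lost the call in 3 of the 6 fits without 1 library (-0.34 to -0.29). WT replicate 1 was the lowest WT library for *Col3a1*, *Col6a3* and *Fn1*. *Col11a1*, a cartilage collagen, went the other way, from 2.14, 2.88 and 3.27 CPM in WT to 64.7, 69.6 and 70.9 CPM in Y428F (24.7-fold).

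Among the glycoproteins, the syndecan *Sdc3* was 4.22-fold, thrombospondin 2 (*Thbs2*) 2.90-fold and the proteoglycan biglycan (*Bgn*) 2.18-fold lower, and fibronectin (*Fn1*) had 3769.8, 4593 and 5017 CPM in WT and 3311, 3149 and 2799.8 CPM in Y428F (-0.53, adjusted p = 0.000205). Tenascin C (*Tnc*) was 3.49-fold higher. Of 32 matrix protease and crosslinking genes tested, 16 were lower (50.0%, against 17.1% of all genes) and 7 higher (21.9%, against 16.9%). The procollagen protease *Adamts2* was 5.40-fold lower and tissue plasminogen activator (*Plat*) 2.89-fold lower. Their counterparts that were higher included the lysyl oxidases *Loxl2* (5.36-fold) and *Loxl4* (3.15-fold).

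Of 23 integrin and cadherin genes, which encode receptors for matrix and for neighboring cells, 10 were higher (43.5%) and 7 lower (30.4%), against 16.9% and 17.1% of all genes. With at least 10 counts required in every library 5 were higher. Cadherin 11 (*Cdh11*), the adhesion molecule of mesenchymal cells and osteoblasts, had 112, 129 and 118 CPM in the WT libraries and 2.40, 2.17 and 1.78 CPM in the Y428F libraries (56.3-fold lower, adjusted p = 7.93e-15). The WT and Y428F libraries were far apart, and none overlapped. The collagen receptor *Itga10* was 9.68-fold lower, whereas *Itga6*, a laminin receptor chain, had 25.8, 26.4 and 24.9 CPM in WT and 101, 104 and 95.0 CPM in Y428F (3.90-fold), and *Itgb8*, which activates latent TGF-β, was 5.69-fold higher. Of 29 contractile and SRF target genes, 8 were lower (27.6%) and 3 higher (10.3%), or 5 higher with scaling to library totals. Their median was 0.08, and in the PTH libraries 14 were lower and 3 higher, with a median of -0.36. The focal adhesion protein zyxin (*Zyx*) had 1736, 1718 and 1832 CPM in WT and 751, 719.9 and 758 CPM in Y428F (2.37-fold lower).

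Of 19 stromal markers tested, 6 were lower (31.6%, against 17.1% of all genes) and 3 higher (15.8%, against 16.9%), or 1 higher with at least 10 counts required in every library. The PDGF receptor genes *Pdgfra* and *Pdgfrb* were lower, *Pdgfra* with 78.8, 107 and 104 CPM in WT and 33.6, 30.2 and 32.9 CPM in Y428F (2.99-fold, adjusted p = 5.49e-09) and *Pdgfrb* 2.83-fold. The adhesion molecule *Vcam1* was 3.38-fold lower, *Angpt1*, which supports marrow vessels and stem cells, 6.31-fold and *Cxcl12*, which retains blood cells in the marrow, 1.45-fold. *Ly6a* (Sca-1), a marker of immature stroma, was higher, with 152, 139 and 130.2 CPM in WT and 332, 330.1 and 329.6 CPM in Y428F. *Ly6a* shares sequence with other *Ly6* genes, so its count may hold reads of relatives.

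Of 16 osteoblast lineage genes tested, 7 were lower (43.8%, against 17.1% of all genes) and 3 higher (18.8%, about the 16.9% of all genes). Besides *Cdh11* and type I collagen, the pyrophosphate transporter *Ank* was lower (-1.70), as were osteopontin (*Spp1*, -0.64) and *Twist1* (-0.57), whereas osteoprotegerin (*Tnfrsf11b*), the decoy that blocks osteoclast formation, was higher (1.30). Of 23 adipocyte lineage genes, 7 were lower (30.4%) and 4 higher (17.4%), the latter again about the share of all genes. The preadipocyte factor *Zfp423* had 14.4, 17.0 and 18.5 CPM in WT and 0.780, 1.03 and 0.777 CPM in Y428F (log2 fold change -4.25, adjusted p = 3.80e-11). The adipogenic factor *Cebpa* was 4.70-fold lower and the lipid carrier *Fabp4* 4.07-fold, while *Pparg*, the master regulator of adipocytes, was slightly higher (32.2 ± 1.39 and 40.6 ± 0.767 CPM, 0.34). The chondrocyte factor *Sox9* averaged 55.9 ± 8.01 CPM in WT and 18.8 ± 0.751 CPM in Y428F (2.97-fold lower), and *Acan*, *Col9a1* and *Hapln1* were at 0 counts in both lines.

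BMP ligands bind type I and type II receptors that phosphorylate SMAD factors, which switch on the *Id* genes, and chordin traps the ligands outside the cell. *Bmp4* had 1, 2 and 7 counts in the WT libraries and 478, 509 and 488 in the Y428F libraries (139.9-fold higher, adjusted p = 1.29e-12), so WT was close to the floor and all Y428F libraries were far above it. The antagonist chordin (*Chrd*) had 7.19, 7.31 and 7.46 CPM in WT and 0.836, 1.19 and 1.55 CPM in Y428F (6.10-fold lower). The other 14 ligand and antagonist genes tested included 3 that were higher and 4 lower. Over all 16 the shares were 25% higher and 31.2% lower, against 16.9% and 17.1% of all genes.

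Of 11 BMP response genes, 6 were higher (54.5%, against 16.9% of all genes) and 1 lower (9.09%). *Id1* had 1.34, 1.27 and 1.09 CPM in WT and 24.1, 28.0 and 23.4 CPM in Y428F (20.3-fold, adjusted p = 2.01e-12), and *Id3* was 20.1-fold higher. The inhibitory *Smad7*, also a response gene, was only slightly higher (log2 fold change 0.31, adjusted p = 0.00575). Among 20 receptor and SMAD genes, 8 were lower (40.0%, against 17.1%) and 3 higher (15%). The activin receptor *Acvr2b* was 4.26-fold lower and the TGF-β receptor *Tgfbr2* had 1126, 1134 and 1196 CPM in WT and 492, 480.1 and 476 CPM in Y428F (2.39-fold lower). *Bmpr1b*, a type I BMP receptor, was higher from a level near 0 (0.226 ± 0.230 and 3.14 ± 0.476 CPM). The count of higher members of this list was 1 in place of 3 without WT replicate 3, Y428F replicate 1 or Y428F replicate 3.

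**Figure D4:**
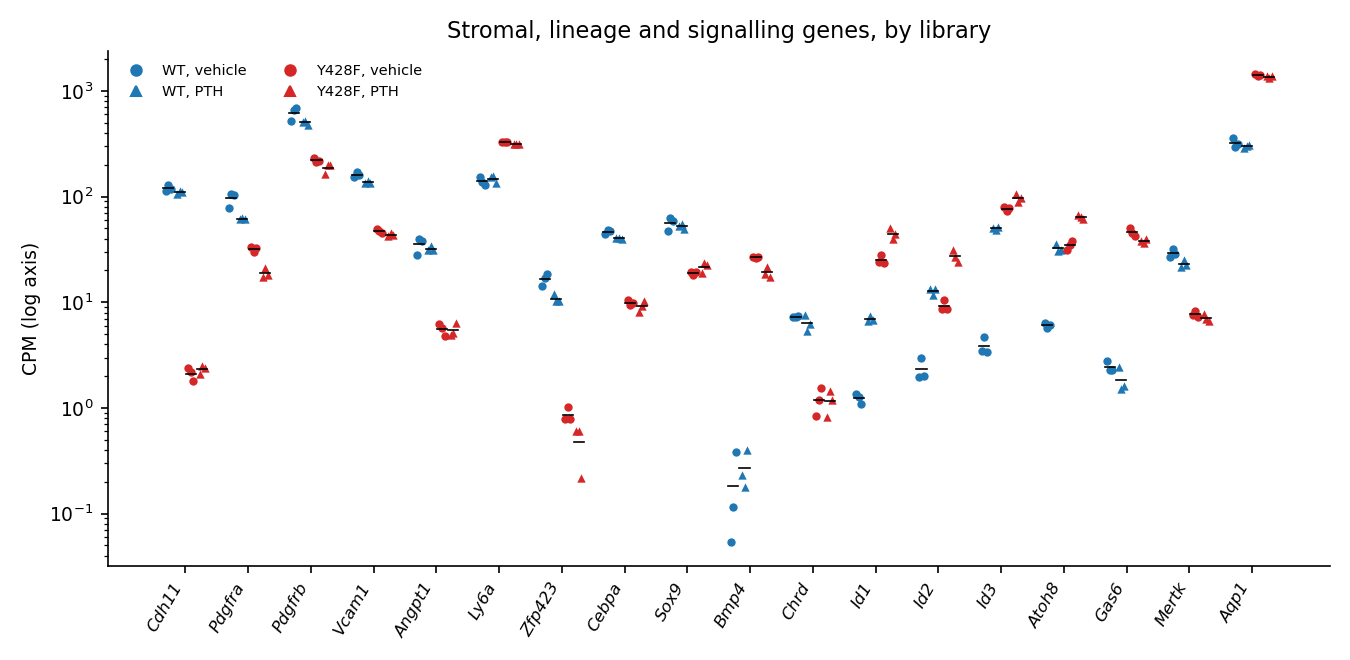
Level in CPM (y axis, log scale) of stromal, lineage and signaling genes in each library; circles are vehicle and triangles PTH libraries, blue is WT and red is Y428F, and bars are means of 3. Cdh11, Zfp423, Cebpa, Chrd and Mertk are lower and Bmp4, Gas6 and Aqp1 higher in Y428F with either treatment, while the Id genes and Atoh8 lie apart with vehicle and closer together with PTH.

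WNT signaling promotes osteoblasts over adipocytes. The coreceptor *Lrp5* had 12.5, 14.3 and 16.3 CPM in WT and 1.67, 1.96 and 1.5 CPM in Y428F (8.34-fold lower), and the nuclear partner of β-catenin, *Lef1*, was 10.8-fold lower (22.0, 25.1 and 24.0 CPM against 2.40, 1.86 and 2.33 CPM). Of 15 WNT receptor genes tested, 4 were lower and 4 higher (26.7% each), with *Fzd5* and *Fzd8* (-1.37 and -1.33) lower and *Fzd1* and *Fzd4* (1.13 and 0.80) higher, and 7 were not called. Of 8 WNT ligand genes tested 4 were higher (50.0%, against 16.9% of all genes) and 1 lower (12.5%, against 17.1%), at low levels, and with at least 10 counts required in every library 1 was higher. Of 6 secreted modulators 2 were lower (33.3%) and 4 not called. Of 5 feedback targets 2 were higher (40.0%) and 1 lower (20%), or 1 higher with at least 10 counts required in every library. Nearly all of the modulator counts came from *Sfrp2*, a secreted WNT-binding protein, with 1974, 1684 and 1808 CPM in WT and 144, 137 and 156 CPM in Y428F (12.5-fold lower). Beta-catenin itself (*Ctnnb1*) was not called (635 and 557 CPM, -0.19).

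Among growth factor genes, 10 of 28 were lower (35.7%, against 17.1% of all genes) and 6 higher (21.4%, against 16.9%), with a median log2 fold change of 0.02, and in the PTH libraries 9 were lower and 8 higher. Of 20 receptor genes, 8 were lower (40.0%) and 1 higher (5.00%), or 2 higher without WT replicate 1 or WT replicate 2. The vitamin K-dependent ligand *Gas6* had 2.79, 2.30 and 2.29 CPM in WT and 50.3, 45.5 and 42.7 CPM in Y428F (18.7-fold higher, adjusted p = 2.25e-13), while its receptors *Mertk* and *Axl* were 3.80-fold and 1.29-fold lower. *Pdgfc*, a ligand of *Pdgfra*, was 20.8-fold higher from 0.236 ± 0.268 CPM, while both PDGF receptors were lower. The metabolic hormone gene *Fgf21* was 7.92-fold higher, and *Fgf7*, which acts on epithelium, had 45.8, 39.5 and 39.2 CPM in WT and 12.2, 10.5 and 9.10 CPM in Y428F (3.92-fold lower). The receptor called higher was *Erbb3* (4.36 ± 0.733 and 18.2 ± 1.72 CPM). Of 19 cytokine and chemokine genes, 6 were lower (31.6%) and 3 higher (15.8%). Those lower included *Ccl5* (-2.22) and *Cxcl10* (-1.25), both inducible by interferon, and *Il34* (-1.41), a ligand of the macrophage growth factor receptor. The monocyte attractant *Ccl2* was higher (1.29).

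Of 29 Hippo and TEAD genes, 5 were lower (17.2%, against 17.1% of all genes) and 3 higher (10.3%, against 16.9%), or 8 higher with scaling to library totals, so the share lower was that of all genes. Of 20 YAP target genes tested, 6 were higher (30.0%) and 5 lower (25%), with a median of -0.00, and in the PTH libraries 3 were higher and 6 lower. *Ccn2*, a secreted matricellular protein, had 4.93, 5.81 and 5.12 CPM in WT and 19.4, 19.5 and 19 CPM in Y428F (3.65-fold higher) and the secreted protein gene *Ccdc80* was lower by a log2 fold change of -1.18. The TEAD letters GGAATG, on either strand, were in 7 of 13 YAP target promoters (53.8%) and in 12.1% of tested genes. Of 17 Src kinases and partners, 3 were higher (17.6%) and 4 lower (23.5%), and of 34 PTH receptor and cAMP signaling genes 5 were higher (14.7%) and 9 lower (26.5%), against 16.9% and 17.1% of all genes. The cyclase *Adcy7* was 2.50-fold higher (12.9 ± 1.43 and 32.2 ± 3.13 CPM) and the phosphodiesterase *Pde4d* 1.95-fold lower, and the Gs alpha gene *Gnas* averaged 2016 ± 47.9 CPM in WT and 1556 ± 43.9 CPM in Y428F.

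The 12 genes with the largest rise, out of those whose mean level reached 10 CPM, were *Gpc1*, *Bche*, *Bmp4*, *Gpnmb*, *Mid1ip1*, *Psca*, *Tinagl1*, *Lncenc1*, *Cd177*, *Niban1*, *Aldh1a1* and *Col11a1*. The membrane glycoprotein *Gpnmb* had 39, 45 and 38 counts in the WT libraries and 3655, 3896 and 3375 in the Y428F libraries (87.7-fold, adjusted p = 4.26e-16), and the matrix protein gene *Tinagl1* had 187, 107 and 163 counts against 6667, 6850 and 6541 (43.2-fold). *Psca* and *Cd177*, relatives of *Ly6a* and *Ly6g* that encode anchored surface proteins, were 51.4-fold and 33.5-fold higher. The noncoding RNA *Lncenc1*, known from embryonic stem cells, was 40.4-fold higher. All of these were higher in the PTH libraries too, by log2 fold changes of 4.83 to 6.26 for the 5 genes given here.

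Among the 12 genes with the largest fall, those not on the interferon list were *Iigp1*, *Gbp6*, *Cdh11*, *Cntnap5a* and *Phf11d*. *Iigp1* and *Gbp6* encode GTPases that interferon induces and were 99.7-fold and 88.2-fold lower, with 1113, 1008 and 954 counts of *Iigp1* in WT and 10, 11 and 10 in Y428F. *Cntnap5a*, a neuronal adhesion gene, was 32.3-fold lower. *Adam23*, an ADAM family membrane protein known mainly from brain, had 309, 295 and 341 counts in WT and 0 in every Y428F library, at least 107-fold lower.

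Some genes were on in 1 line and silent in the other with vehicle. Silent means at most 3 counts in every vehicle library of one line, with at least 10 CPM in every vehicle library of the other. There were 7 silent in WT. *Bche*, which encodes butyrylcholinesterase, had 728, 825 and 722 counts in Y428F and 0 in WT (at least 248-fold higher), and the glypican *Gpc1* was at least 493-fold higher. The drug efflux transporter *Slc47a1* (221, 232 and 216 counts in Y428F and 0, 1 and 0 in WT) was at least 73.1-fold and the actin-binding *Limch1* at least 108-fold higher. With PTH, *Gpc1* had 35 counts in WT replicate 1 and *Limch1* had 10 in WT replicate 3. Their log2 fold changes with PTH were 6.82 and 6.14, against 13.54 and 7.80 with vehicle. *Magec2* and *Pnma5*, X-linked genes known mainly from testis and brain, were at least 71.5-fold and 69.4-fold higher, and *Ly6g* was the seventh. There were 3 silent in Y428F, *Rsad2*, *Adam23* and the unnamed *Gm7592*.

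Ranked by the change in CPM, which gives more weight to long transcripts, other genes came first than by ratio. The 10 largest gains in CPM were *Hsp90ab1*, *Actg1*, *Aqp1*, *Pkm*, *Tuba1b*, *Eno1*, *Actb*, *Gapdh*, *Ldha* and *Tubb5*. The water channel *Aqp1* gained the most by ratio, from 356, 295 and 316 CPM in WT to 1445, 1379.6 and 1428 CPM in Y428F (4.39-fold, adjusted p = 2.30e-12). The cytoplasmic actins *Actb* and *Actg1* were higher with vehicle (0.43 and 0.58) but were not called with PTH (-0.08 and 0.05). The edgeR quasi-likelihood test of the interaction of line and treatment passed for *Actg1* (0.53, adjusted p = 0.00139). It did not pass 0.01 for *Actb* (0.51, adjusted p = 0.0106). The 10 largest losses were *Col1a2*, *Sfrp2*, *Col1a1*, *Bgn*, *Fn1*, *Thbs1*, *Zyx*, *Lamp1*, *S100a6* and *Fkbp9*. The lysosomal membrane gene *Lamp1* had 2410.3, 2507 and 2490.2 CPM in WT and 1513, 1488 and 1522 CPM in Y428F (1.64-fold lower), and *Fkbp9*, which folds proteins in the endoplasmic reticulum, was 1.94-fold lower.

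The line difference also varied with the place of a gene in the genome (GRCm39). Over the 10498 genes whose mean level reached 4 CPM, 45.5% of the genes of chromosome 10 were called higher and 9.09% lower, and 7.64% of those of chromosome 9 were called higher and 40.1% lower. On 6 of the 20 chromosomes every bin had the same sign. In bins of 10 Mb with at least 20 genes, the median log2 fold change was below 0 in 12 of 12 bins of chromosome 9 and 7 of 7 of chromosome 18, and above 0 in 11 of 11 of chromosome 10, 12 of 12 of chromosome 11, 7 of 7 of chromosome 15 and 6 of 6 of chromosome 19. The other 14 chromosomes held bins on both sides of 0, such as chromosome 3 from -0.41 to 0.20 and chromosome 14 from -0.25 to 0.25. In the PTH libraries the median of chromosome 10 was 0.27 (0.26 with vehicle) and that of chromosome 9 was -0.25 (-0.23). Genes of a bin share their position and are not independent, so no test was made, and chromosome number was not measured.

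**Figure D5:**
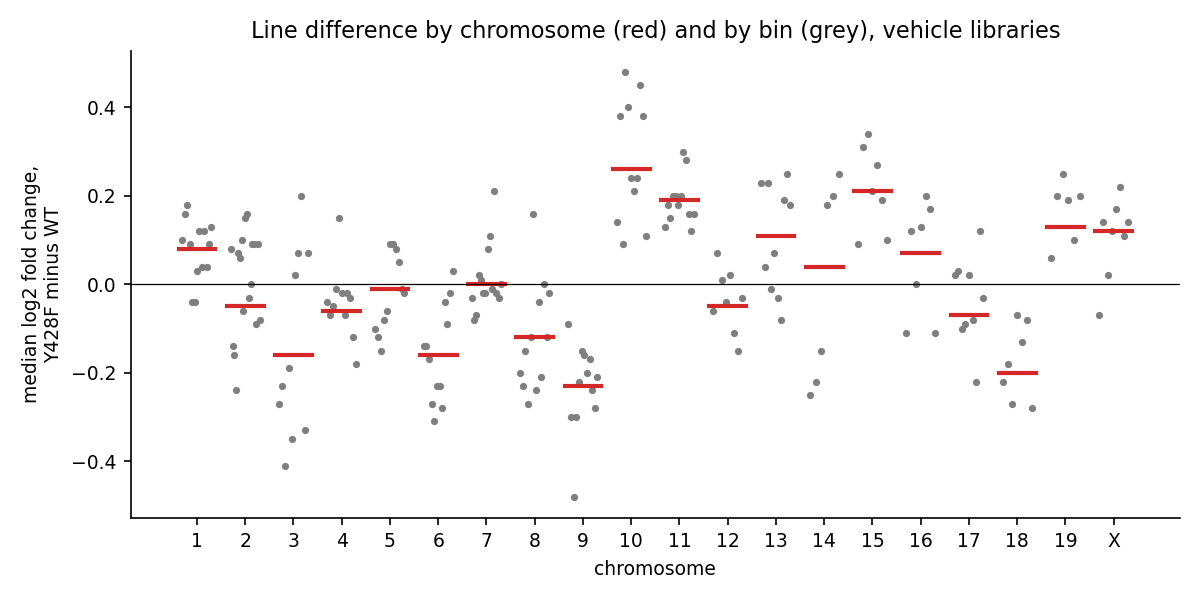
Median log2 fold change (Y428F minus WT, y axis) by chromosome (x axis; red bars) and by bin of 10 Mb along each chromosome (grey points, in order of position) for genes whose mean level reached 4 CPM. All points of chromosome 9 lie below 0 and all points of chromosomes 10, 11, 15 and 19 above it, within a range of -0.48 to 0.48.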

How the data were processed

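RNA was sequenced by the authors' provider from poly(T)-captured mRNA, and whether libraries kept strand is not stated, so reads of overlapping antisense genes cannot be told apart. The authors mapped reads with STAR 2.7.10b to GRCm39 with GENCODE basic vM31 and deposited RSEM expected counts per gene, unscaled. These estimated counts were rounded here, and edgeR 4.0.16 was run on them in R 4.3.3 (TMM, quasi-likelihood test, Benjamini-Hochberg adjustment). Positions came from GENCODE vM39. The named genes were the 12 largest rises and falls, the 10 largest gains and losses of CPM, silent genes, and up to 6 called members a list with a mean of at least 2 CPM. Other members are named for their role, whatever their value. The members and the 45 lists were chosen with earlier results of these data known, and 3 lists were added after values were seen. Alternatives were DESeq2 1.42.0, other scalings, filters and limits, a replicate block, and each library left out. Tests were checked on simulated data in which few genes were changed, none of them at low counts. That check does not cover genes near the floor or a difference as wide as this one. Same-numbered libraries of the lines did not deviate together (correlations -0.0223 to 0.001). Some genes that these rules name are not reported here.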

Additional observations from a re-analysis of the deposited data

Results flagged for a closer look

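For 7 genes among those described, the line difference with vehicle was not the same as with PTH, by the interaction of line and treatment in edgeR's quasi-likelihood test over all 12 libraries. The values are the line difference with vehicle minus that with PTH on the log2 scale. They were 3.38 for *Id3* (SE 0.13, adjusted p = 2.58e-12), 1.66 for *Id1* (adjusted p = 0.000233), 1.55 for *Atoh8* (adjusted p = 1.04e-06), 0.55 for the myosin light chain *Myl9* (adjusted p = 0.000997) and 0.53 for *Actg1* (adjusted p = 0.00139). Among the genes whose call reversed, they were 0.94 for *Daam1* (adjusted p = 0.000515) and -0.81 for *Stx3* (adjusted p = 0.00803). The interaction of the third such gene, a *Pakap* gene, did not pass 0.01 (1.08, adjusted p = 0.0289). *Id3* had 3.84 ± 0.760 CPM in WT with vehicle and 50.2 ± 2.08 CPM with PTH, and 77.2 ± 3.36 and 97.2 ± 8.89 CPM in Y428F. The lines were therefore 20.1-fold apart with vehicle and differed by a log2 fold change of 0.95 with PTH. *Id1* and *Atoh8* showed the same order of the 4 groups. *Myl9* was lower in Y428F with either treatment, by -1.05 with vehicle and -1.60 with PTH. *Actg1* had 2277 ± 43.3 CPM in WT with vehicle and 4324 ± 122 CPM with PTH, and 3409.7 ± 84.7 and 4475 ± 185 CPM in Y428F. Over all genes 22 of 17691 (0.124%) had such an interaction, 1247 had an unadjusted p under 0.05, and DESeq2 called 70.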

How the results depend on the processing

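The counts of 2738 higher and 2763 lower genes stayed within 1.5 times of these values with DESeq2's size factors, library totals, DESeq2's Wald test, other filters, all 12 libraries in the fit and a replicate block (2633 and 2658). Other limits moved them. With an adjusted p under 0.05 and no fold limit 4134 genes were higher, with an adjusted p under 0.0001 the counts were 1595 and 1702, and beyond a log2 fold change of 1 they were 789 and 847. Fits without 1 library gave 2440 to 2836 higher and 2485 to 2874 lower genes with vehicle, and 2204 to 2520 and 2372 to 2700 with PTH. With PTH the block gave 2640 and 2792. The numbers of the replicates did not pair the libraries, and the block changed the call of 0 of the 249 genes named by the rules. Of these, 237 kept their call in every alternative that tested them. The exceptions include *Col1a1*, *mt-Nd2*, *Ebf1*, *Adcy9*, *Wnt4*, *Hoxa5*, *Hoxc4* and *Hoxc12*. The interaction was called for 70 genes with DESeq2 and 23 with the block, in place of 22, and the spread of chromosome medians was 0.52 in the PTH libraries in place of 0.49. The causes were not tested. With library totals 56.5% of the calls were higher, against 49.8%. Depth limits genes near the floor of 3 counts, such as *Pth1r* and the interferon ligands.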

Other observations

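Of 22 limb and positional factors tested, 8 were lower (36.4%, against 17.1% of all genes) and 1 higher (4.55%, against 16.9%) with vehicle, and 11 lower and 1 higher with PTH. The T-box factor *Tbx18* was lower by a log2 fold change of -1.10, and *Shox2*, a factor of the proximal limb, averaged 101 ± 4.87 CPM in WT and 64.1 ± 2.30 CPM in Y428F. Of 26 HOX genes tested, 7 were lower (26.9%) and 3 higher (11.5%) with vehicle (median -0.34), and 16 were not called. With 1 library left out the count lower was 4 to 6, and 4 without Y428F replicate 3, so the share lower was near that of all genes. With PTH 4 were lower and 5 higher (median 0.07). Those lower included genes of the A cluster (*Hoxa13* -1.39, *Hoxa3* -0.86, *Hoxa11* -0.42, *Hoxa10* -0.36) and *Hoxc4* (-0.66), and *Hoxc10*, *Hoxc12* and *Hoxc13* were higher (0.54, 0.50 and 0.46). The calls of *Hoxc4*, *Hoxa5* and *Hoxc12* were lost in some fits without 1 library.

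Of 14 imprinted genes tested, which are transcribed from 1 parental copy, 7 were lower (50.0%, against 17.1% of all genes) and 4 higher (28.6%, against 16.9%). *Grb10*, an inhibitor of insulin receptor signaling, had 116, 127 and 120.1 CPM in WT and 14.5, 16.3 and 18.0 CPM in Y428F (-2.89). The neighbors *Peg10* and *Sgce* went opposite ways, *Peg10* from 89.4 ± 5.44 to 284 ± 3.76 CPM and *Sgce* from 198 ± 6.47 to 75.6 ± 1.64 CPM. *Igf2r* and *Airn*, transcripts of the same locus, were both lower (-1.39 and -1.20). Of 38 axon guidance genes tested, 14 were lower (36.8%) and 9 higher (23.7%), or 3 higher with at least 10 counts required in every library. The ephrin *Efnb2* was lower (312 ± 31.5 and 142 ± 4.54 CPM, -1.14), as was *Sema7a* (-2.23), and *Sema3e* was higher from a level near 0 (0.182 ± 0.0584 and 5.59 ± 0.688 CPM). Of 20 Notch pathway genes tested, 5 were lower (25%) and 3 higher (15%), near the shares of all genes, with *Notch3* and *Notch2* lower (-1.25 and -0.61) and the glycosyltransferase *Lfng*, which tunes the receptors, higher (1.54). Of 11 glycosphingolipid and glycan enzyme genes, 4 were higher (36.4%) and 2 lower (18.2%, near the 17.1% of all genes).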
